A study of Saccharomyces cerevisiae with 30 samples.

Results

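The 10 genes described here are targets of nitrogen catabolite repression in the yeast Saccharomyces cerevisiae, taken by name from among 5547 genes on the array. They are the ammonium permease genes MEP1 (YGR121C), MEP2 (YNL142W) and MEP3 (YPR138C), the general amino acid permease gene GAP1 (YKR039W), the proline genes PUT1 (YLR142W), PUT2 (YHR037W) and PUT4 (YOR348C), the repressor gene DAL80 (YKR034W), the urea transporter gene DUR3 (YHL016C) and the allantoate permease gene DAL5 (YJR152W). Each was measured by 1 spot.

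Nitrogen catabolite repression keeps genes for the uptake and breakdown of poor nitrogen sources at a low level while a good source such as glutamine or ammonium is plentiful. When good sources run short, or when the TOR kinase is inhibited, the GATA factors Gln3 and Gat1 leave the cytoplasm, where Ure2 holds Gln3 back, and activate these genes through GATA sequences in their promoters. Dal80 and Gzf3 bind the same kind of sequence and repress, and since DAL80 is itself a target, the system limits its own output. Proline genes answer to a further activator, Put3, and allantoin genes to Dal81 and Dal82.

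The series compared transcript levels between yeast strains on 30 two-channel arrays, under a title on regulation by TFIID and SAGA, which are coactivators that deliver the TATA-binding protein to promoters. Strains carry only their collection names in the labels, so no genotype was assumed. Cultures were raised at 26 °C in CSM-Trp-His medium, reached an OD600 near 0.8 and then spent 45 min at 37 °C. The strains YKH100, YKH101, YJS7, YJS8 and YJS9, and also YJS8 kept at 26 °C without the shift, were compared with the strain YJS6. YKH104, YKH106, YKH107, YKH108 and YKH109 were compared with the strain YKH105. Each group had 2 arrays with the strain in opposite channels, except that there were 3 for YKH109. On another 7 arrays, called self arrays, both channels held YJS6 (4 arrays) or YKH105 (3 arrays). The labels do not say whether the arrays of a strain came from separate cultures, so p-values measure only the spread between arrays.

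All values are log2 ratios with the array's median gene at 0. The labels do not give the direction of the ratio, which was read as likely the strain over its reference, because SPT3, a SAGA subunit gene, stood at -8.33 in YKH104 and -8.23 in YKH107, and GCN5, the SAGA acetyltransferase gene, at -4.97 in YKH100 and -5.40 in YKH101. The second arrays of YKH100 and YJS8 held identical values and were left out, so each of these strains at 37 °C rests on 1 array, is assumed to vary like the others and has no replicate check of its own. The array median itself was not constant: its mean per group ran from -0.97 in YJS8 and -0.96 in YKH107 and YKH109 to 0.17 in YKH106 and 0.19 in YJS7 on the deposited scale. Errors are standard errors (SE) from limma, n is the number of arrays, and a gene was called higher or lower at a Benjamini-Hochberg adjusted p under 0.05 over all genes tested in that group. On the self arrays the 10 genes lay between -0.41 and 1.08, and 8 of them stayed within 0.5 of the median on all 7 arrays. PUT4 reached 1.08 and MEP1 reached 0.52 on YJS6 self arrays.

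Over 11 strain groups, 108 of the 110 possible tests could be made, and 38 were called higher and 5 lower. Without centring, 15 were called higher and 6 lower. YKH101 and YKH108 each had 8 of 10 genes higher. In YKH101, 1 gene was lower as well and the median of the genes was 1.85, where 18.9% of all genes tested were called higher and 20.4% lower. In YKH108 none was lower and the median was 1.03, against 17.0% of all genes called higher and 19.9% lower. YJS9 had 6 of 9 genes higher with a median of 1.11, beside 20.9% of all genes higher and 23.1% lower. For YKH109, 6 of 10 were higher and 1 lower with a median of 0.72, and the shares of all genes were 25.1% higher and 27.8% lower. YJS8 at 37 °C had 4 of 10 higher with a median of 1.23, where 8.14% of all genes were higher and 7.74% lower. YJS7 had 3 of 9 higher with a median of -0.03, beside 7.38% of all genes higher and 6.93% lower.

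The remaining groups had few calls. In YKH107, 1 gene was higher and 1 lower with a median of -0.03, although 23.5% of all genes were called higher and 24.9% lower in that strain. YKH104 had 1 gene higher and 2 lower with a median of -0.58, beside 6.47% of all genes higher and 7.09% lower. YKH106 had 1 gene higher with a median of -0.15, and 0.636% of all genes were higher and 0.455% lower. None of the 10 genes was called by limma in YKH100 (2, PUT1 and PUT2, at an unadjusted p under 0.05), where the median was 0.42 and 0.637% of all genes were higher and 0.691% lower, or in YJS8 at 26 °C (0 at an unadjusted p under 0.05), where the median was 0.06 and 0.0182% of all genes were higher and 0.0% lower.

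The calls depended on the scale. Without centring the values shifted with the array medians, and most of the 10 genes had larger standard errors. PUT2 in YJS7 stood at 1.29 ± 0.37 (SE, n = 2) without centring and was not called, against 1.10 ± 0.12 (SE, n = 2) with it. On the deposited scale, 5 of the 10 genes were higher and 1 lower in YKH101, where 2.13% of all genes were higher and 31.1% lower. YJS9 had 3 of 9 genes higher and none lower, beside 3.49% and 22.6% of all genes. In YKH108, 3 were higher and none lower, beside 1.0% and 29.8%, and in YKH109 2 were higher and 1 lower, beside 2.04% and 60.6%. In YKH107, none was higher and 4 (MEP1, PUT4, DAL80 and DUR3) were lower, beside 0.563% and 53.4%. YJS8 at 37 °C and YJS7 each had 1 gene higher, beside 0.146% of all genes higher and 2.1% lower in YJS8 and 0.351% higher and 0.111% lower in YJS7. MEP2 was called higher on both scales in YKH101, YJS9, YKH108 and YKH109, PUT1 in YKH101, YJS7 and YJS9, PUT2 in YJS9, PUT4 in YKH101 and YKH108, DAL80 in YKH101 and YKH109, and DUR3 in YKH101, YJS8 and YKH108.

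**Figure D1:**
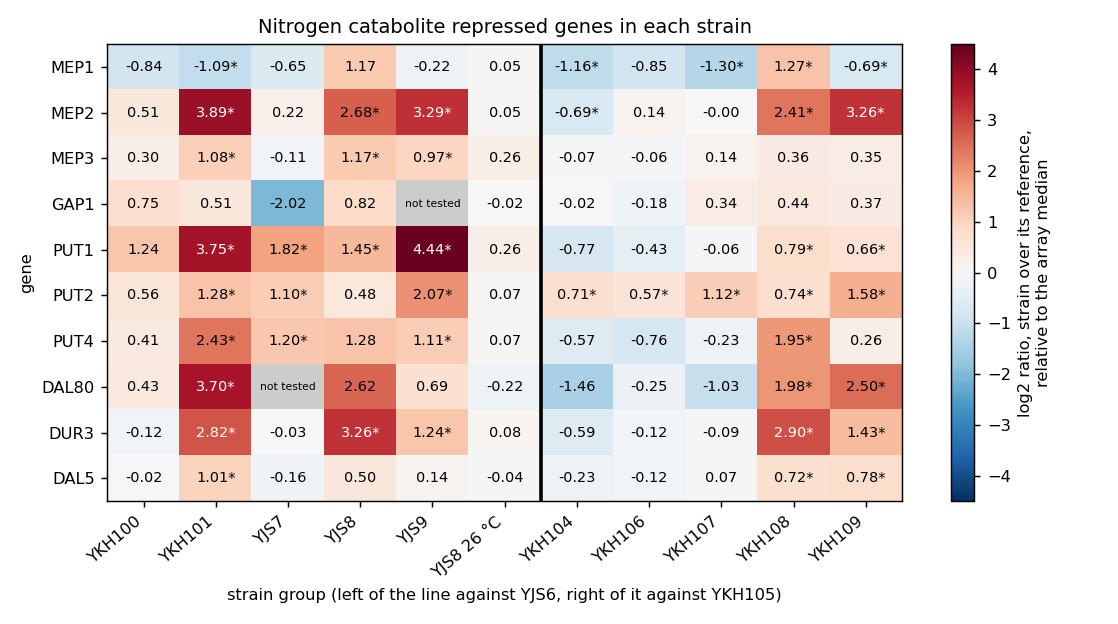
Fitted log2 ratio of each of the 10 genes (rows) in each of the 11 strain groups (columns), relative to the array median, with red for higher and blue for lower values and an asterisk for an adjusted p under 0.05. MEP2 stands at 2.41 or above in YKH101, YJS8, YJS9, YKH108 and YKH109 and at 0.51 or below in the other groups, while PUT2 is above 0 in all 11 on this scale.

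MEP2, the ammonium permease of highest affinity and also a sensor for filamentous growth, was called higher in 5 of 11 groups. Its arrays stood at 3.64 and 4.15 in YKH101, a 14.9-fold difference from YJS6 (3.89 ± 0.21, SE, n = 2; limma adjusted p = 2.46e-07). In YJS9 they stood at 3.09 and 3.50 (3.29 ± 0.21, SE, n = 2; limma adjusted p = 3.91e-07), and the single array of YJS8 read 2.74. Against YKH105, the 3 arrays of YKH109 gave 3.64, 2.93 and 3.14 (3.26 ± 0.17, SE, n = 3; limma adjusted p = 5.43e-08), a 9.56-fold difference. YKH108 had 2.78 and 2.04. All of these arrays lay far above the self arrays, which ran from -0.24 to 0.16 for this gene.

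In YKH107 the MEP2 arrays read 0.01 and -0.01, within the range of the self arrays. YKH106 arrays stood at 0.35 and -0.07, YJS7 arrays at 0.16 and 0.27 and the YKH100 array at 0.57, and none of these groups was called. MEP2 was lower in YKH104 (-0.69 ± 0.21, SE, n = 2; limma adjusted p = 0.0454), where the arrays stood at -0.56 and -0.83. That call was lost without either array, with values of -0.78 and -0.61. Across the 11 groups, the MEP2 values therefore formed a high set of 5 and a set of 6 at or below 0.51, with no group between 0.51 and 2.41.

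MEP3, the ammonium permease of high capacity, was higher in YKH101 (arrays 1.23 and 0.92), YJS8 (array 1.25) and YJS9 (arrays 0.78 and 1.16). In YKH108 it was at 0.74 and -0.02 and in YKH109 at 0.55, 0.00 and 0.43, and neither group was called. Without YKH109 replicate 2 the value in YKH109 was 0.49 and was called. MEP3 values were at most 1.17, smaller than those of MEP2 in each of the 5 groups where MEP2 was higher. No call for MEP3 held on the deposited scale, and the YJS9 call was lost without replicate 2 (0.68; limma adjusted p = 0.0516). The YJS8 call was lost as well when the array values deposited under both YKH100 and YJS8 were counted as a second YJS8 array (0.52; limma adjusted p = 0.212).

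MEP1, the other permease of high capacity, went the other way in several strains. Its arrays stood at -1.26 and -1.35 in YKH107 and at -1.01 and -1.31 in YKH104, both called lower. YKH109 was lower too, with -0.67, -1.11 and -0.39. In YKH101 the arrays read -0.17 and -2.02, so the call of a lower level there rests on 1 array, and without replicate 2 the value was -0.17. YKH108 was the group where MEP1 was called higher, with arrays at 1.17 and 1.36 (1.27 ± 0.31, SE, n = 2; limma adjusted p = 0.008).

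The MEP1 calls in YKH104, YKH107 and YKH108 did not survive the loss of either array, with values from -1.23 to -1.09 in YKH104, from -1.35 to -1.25 in YKH107 and from 1.06 to 1.47 in YKH108. In YKH109 the call was lost without replicate 1 (-0.65) or without replicate 2 (-0.53). On the deposited scale MEP1 was called lower in YKH101, YKH107 and YKH109 and higher in none of the groups. MEP1 and MEP3 are similar in sequence, and whether their spots share signal was not tested.

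GAP1, the general amino acid permease gene and a much used reporter of this repression, was called in none of the 10 groups where it could be tested. YJS9 was not tested, because replicate 1 had no value. At an unadjusted p under 0.05 GAP1 would pass in 1 group, YJS7, where replicate 1 read -4.22 and replicate 2 read 0.19, and there it was called lower when replicate 2 was left out (-4.24). Its standard errors of 0.54 to 0.95 were the widest of the 10 genes. The fit used 1 spread per gene for all groups, so the distance between the YJS7 arrays entered these errors in every group. In YKH101, GAP1 arrays stood at 0.67 and 0.35, in YKH108 at 0.38 and 0.50, in YKH109 at 0.15, 0.58 and 0.63, and in YKH107 at 0.41 and 0.28. When the YKH105 arrays were fitted alone, GAP1 was called higher in YKH107 (0.34), YKH108 (0.44) and YKH109 (0.43). Every array of these 3 strains lay above all YKH105 self arrays, which ran from -0.26 to 0.01 for GAP1. The YJS6 self arrays ran from 0.07 to 0.29, and the YKH109 array at 0.15 and the YKH107 array at 0.28 lay inside that range.

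Among the proline genes, PUT1, the mitochondrial proline oxidase gene, reached the largest value of the 10 genes. Its arrays in YJS9 stood at 4.58 and 4.30, a 21.6-fold difference from YJS6 (4.44 ± 0.28, SE, n = 2; limma adjusted p = 3.95e-07). YKH101 followed with arrays at 3.91 and 3.59 (3.75 ± 0.28, SE, n = 2; limma adjusted p = 1.96e-06). In YJS7, arrays at 1.03 and 2.60 differed by more than in any other group for this gene, and both exceeded the self arrays, which ran from -0.28 to 0.16. The YJS8 array read 1.48, which was called, and the YKH100 array 1.28, which was not.

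Strains set against YKH105 had much smaller PUT1 values. In YKH108 the arrays stood at 0.94 and 0.64 and in YKH109 at 0.99, 0.26 and 0.70, and both groups were called higher. Both calls could be lost with fewer arrays. YKH108 lost it without either array, with 1 array left (0.66 and 0.92), and YKH109 without replicate 1 (0.48) or replicate 3 (0.63). The value in YKH109 was -0.25 on the deposited scale. YKH107 arrays were at 0.02 and -0.14, YKH106 arrays at -0.30 and -0.56 and YKH104 arrays at -0.69 and -0.85, with no call in any of these 3 strains.

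PUT2, the next enzyme of proline breakdown, had the most calls of the 10 genes, being higher in 8 of 11 groups. Its arrays agreed closely, at 2.02 and 2.11 in YJS9, at 1.68, 1.47 and 1.61 in YKH109, at 1.26 and 1.31 in YKH101 and at 1.15 and 1.09 in YKH107. It was thus the 1 gene of the set called higher in YKH107 (1.12 ± 0.12, SE, n = 2; limma adjusted p = 1.32e-05). YJS7 had 0.90 and 1.31, YKH108 0.90 and 0.58, YKH104 0.68 and 0.74, and YKH106 0.58 and 0.57. The calls in YKH104 and YKH106 were lost without either of their arrays, with values of 0.68 to 0.74 and 0.56 to 0.58. On the deposited scale PUT2 was called in YJS9 alone, at 1.56.

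PUT4, the high-affinity proline permease gene, was higher in YKH101 (arrays 2.27 and 2.58), YKH108 (1.66 and 2.24), YJS7 (0.76 and 1.65) and YJS9 (0.94 and 1.28). In YKH109, arrays at 1.20, -0.36 and -0.09 straddled 0, and there was no call. YKH107 arrays stood at -0.11 and -0.35. Of the calls, YJS7 lost its own without replicate 2 (0.67) and YJS9 without either array (1.33 and 0.89), whereas YKH101 and YKH108 kept theirs. The YJS6 self arrays reached 0.80 and 1.08 for this gene, so the lowest arrays of YJS7 and YJS9 lay inside that range.

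**Figure D2:**
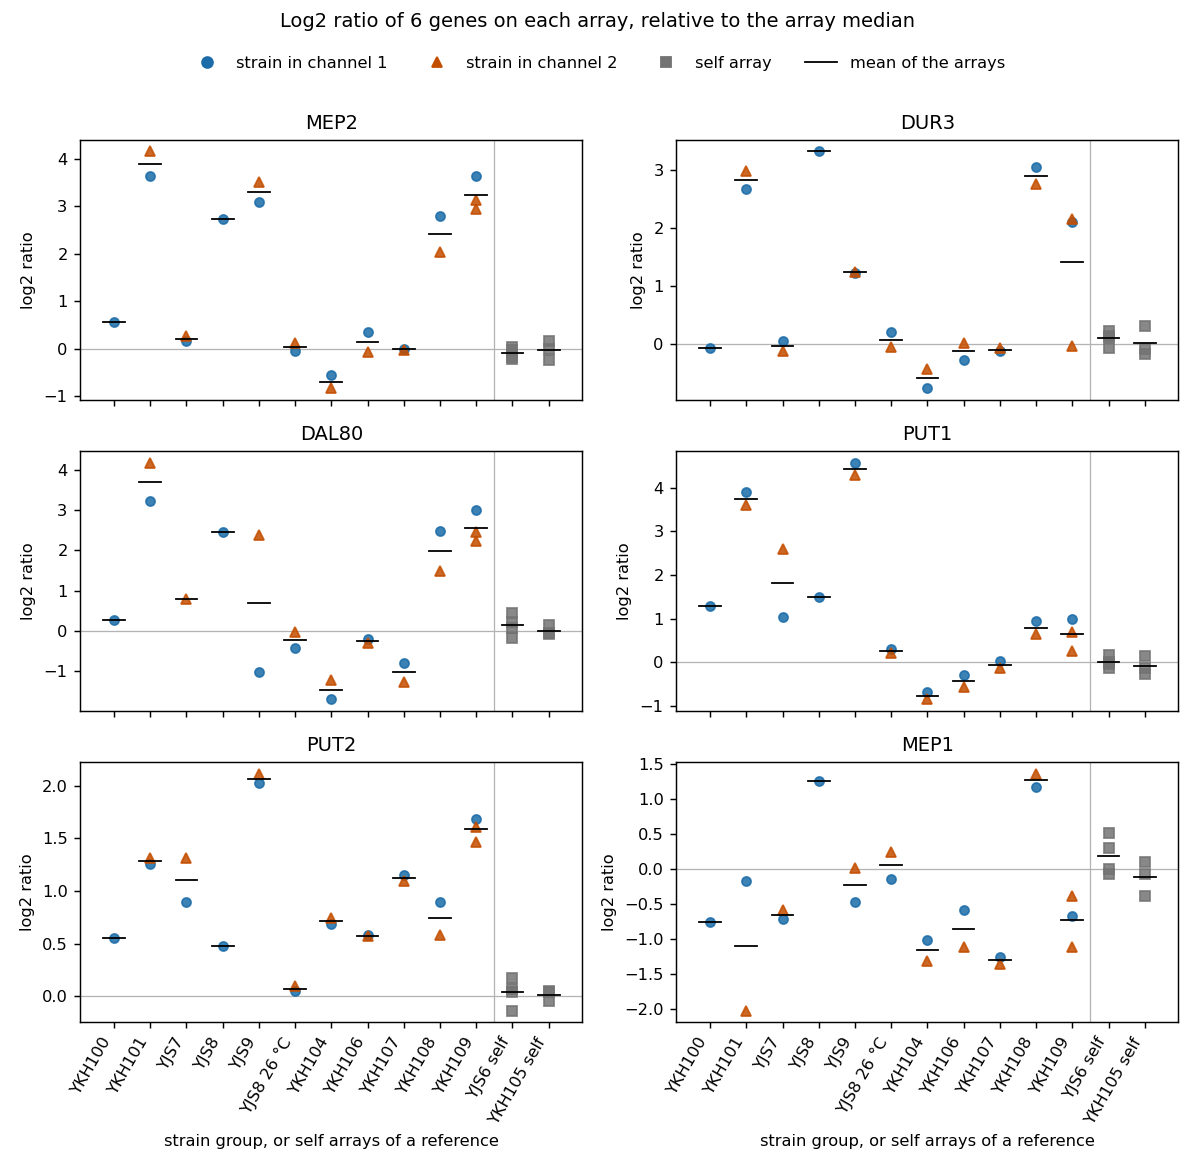
Log2 ratio of 6 of the genes on each array (vertical axes) by strain group and on the self arrays (horizontal axis), with circles for the strain in channel 1, triangles for channel 2, squares for self arrays and a line at the mean of the plotted arrays. MEP2 arrays of YKH109 run from 2.93 to 3.64 while those of YKH107 lie at 0, DUR3 has 1 YKH109 array at -0.03 beside 2 above 2, and DAL80 in YJS9 is split between -1.01 and 2.38.

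DAL80, the GATA repressor gene, was higher in YKH101, where its arrays stood at 3.23 and 4.18 (3.70 ± 0.57, SE, n = 2; limma adjusted p = 0.000433). YKH109 arrays at 3.0, 2.23 and 2.45 were called higher as well (2.50 ± 0.47, SE, n = 3; limma adjusted p = 0.00106). In YKH108 they read 2.48 and 1.49, and that call was lost without replicate 1, when the value was 1.23. The YJS8 array stood at 2.45, with an adjusted p just past the threshold (limma adjusted p = 0.0544).

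The 2 arrays of YJS9 disagreed on DAL80, at -1.01 and 2.38. Without replicate 1 the value in YJS9 was 2.42 and was called. YKH107 arrays at -0.81 and -1.26 and YKH104 arrays at -1.70 and -1.21 lay below every self array, which ran from -0.17 to 0.46, but neither group was called in the fit of all arrays. Fitted with the YKH105 arrays alone, both were called lower (-1.03 in YKH107 and -1.46 in YKH104).

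DUR3, which carries urea and polyamines into the cell, was higher in YKH101 with arrays at 2.67 and 2.98, in YKH108 at 3.04 and 2.76, and in YJS8 with its single array at 3.32. With the array values deposited under both YKH100 and YJS8 counted as a second YJS8 array, DUR3 in YJS8 was at 1.64 and was not called (limma adjusted p = 0.0948). In YKH108 this was a 7.46-fold difference from YKH105 (2.90 ± 0.38, SE, n = 2; limma adjusted p = 0.000147). YJS9 arrays agreed at 1.23 and 1.25 and were called, a call that was lost without either array (1.31 and 1.16). In YKH109, 2 arrays stood at 2.11 and 2.15 and replicate 2 at -0.03. The YKH109 value of 1.43 was called, and it was 2.13 without that replicate, which also held the fewest spots with a value (5955 of 6400). DUR3 arrays of YKH107 (-0.12 and -0.06), YJS7 (0.05 and -0.11) and YKH100 (-0.06) were close to 0.

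DAL5, which imports allantoate and small peptides, had the same calls as DAL80, at a smaller size. It was higher in YKH101 (arrays 0.65 and 1.37), YKH109 (1.01, 0.65 and 0.73) and YKH108 (0.83 and 0.61). Self arrays ran from -0.15 to 0.24, below every array of these 3 strains. The YKH108 call was lost without replicate 1 (0.54). On the deposited scale DAL5 was called in no group, and its value in YKH109 was -0.13.

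The values of SPT3 and GCN5 are given here beside the calls of these genes. MEP2, DUR3 and DAL80 were not higher in YKH104 and YKH107, where SPT3 was at -8.33 and -8.23. They were higher in YKH108, where SPT3 was at 1.43 and called higher, and in YKH109, where it was at -0.59 and not called. In YKH106 SPT3 was at -1.06 and not called, and MEP2 (0.14), DUR3 (-0.12) and DAL80 (-0.25) were not called there either. The other genes were not all alike in the strains set against YKH105. PUT1 and DAL5 were called only in YKH108 and YKH109, both higher, and PUT4 only in YKH108. PUT2 was called higher in YKH104 (0.71), YKH106 (0.57), YKH107 (1.12), YKH108 and YKH109. MEP1 was called lower in YKH104, YKH107 and YKH109 and higher in YKH108. GAP1 and MEP3 were called in none of these strains. GCN5 was at -5.40 in YKH101, where 8 of the genes were higher, at -4.97 in YKH100, where none was called, and at 3.21 in YJS9 and 2.48 in YJS7. The part of either gene in these results was not tested.

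Differences between strains with the same reference were tested directly, in 20 pairs of shifted strains. The 7 pairs described below were chosen after their values were seen, and the reference cancels in each of them. Between YKH108 and YKH107, 5 of the 10 genes differed, all higher in YKH108, and 17.8% of all genes differed in either direction. MEP2 was 2.41 in YKH108 and -0.00 in YKH107, a difference of 2.42 ± 0.29 (SE; limma adjusted p = 0.000153). DUR3 differed by 2.99, DAL80 by 3.02, MEP1 by 2.57 and PUT4 by 2.18. All 5 calls held on the deposited scale. DAL80 lost its call without YKH107 replicate 1 (3.47), YKH107 replicate 2 (2.56) or YKH108 replicate 1 (2.26), and PUT4 without replicate 2 of YKH107 (2.07) or of YKH108 (1.83). PUT2 was 0.74 in YKH108 and 1.12 in YKH107, a difference of -0.38 that was not called.

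Between YKH109 and YKH107, 3 of the 10 genes differed, where 10.9% of all genes did. MEP2 was higher in YKH109 by 3.26 and DAL80 by 3.53. DAL5 was higher by 0.71, a call that was lost on the deposited scale (0.77), and also without YKH107 replicate 1 (0.74), YKH107 replicate 2 (0.68), YKH109 replicate 1 (0.53) or YKH109 replicate 3 (0.76). DAL80 lost its call without YKH107 replicate 2 (3.06) or YKH109 replicate 1 (3.11). DUR3 was 1.52 higher in YKH109 without a call (limma adjusted p = 0.073), and 2.22 higher with a call once YKH109 replicate 2 was left out.

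YKH109 and YKH108 differed in 3 of the 10 genes, beside 5.1% of all genes. MEP1 was -0.69 in YKH109 and 1.27 in YKH108, a difference of -1.96 (limma adjusted p = 0.0142), and PUT4 was 0.26 in YKH109 and 1.95 in YKH108, a difference of -1.69 (limma adjusted p = 0.0379). PUT2 ran the other way, at 1.58 in YKH109 and 0.74 in YKH108, 0.85 higher in YKH109. None of the 3 calls held on the deposited scale. The MEP1 call was lost without YKH108 replicate 1 (-2.15) or 2 (-1.74), and the PUT2 call without YKH108 replicate 2 (0.66). For PUT4 it was lost without YKH108 replicate 1 (-2.03), YKH108 replicate 2 (-1.33), YKH109 replicate 2 (-1.40) or YKH109 replicate 3 (-1.53). DUR3, with a difference of -1.47 and no call, was called lower in YKH109 without YKH109 replicate 2 (-0.77) or replicate 3 (-1.86). MEP2 was 0.84 higher in YKH109 than in YKH108 and was not called.

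Between YKH106 and YKH104 none of the 10 genes was called (limma, with 1, MEP2, at an unadjusted p under 0.05), beside 0.164% of all genes. MEP2 was 0.14 in YKH106 and -0.69 in YKH104. DAL80 was -0.25 in YKH106 and -1.46 in YKH104, a difference of 1.21 ± 0.80 (SE).

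**Figure D3:**
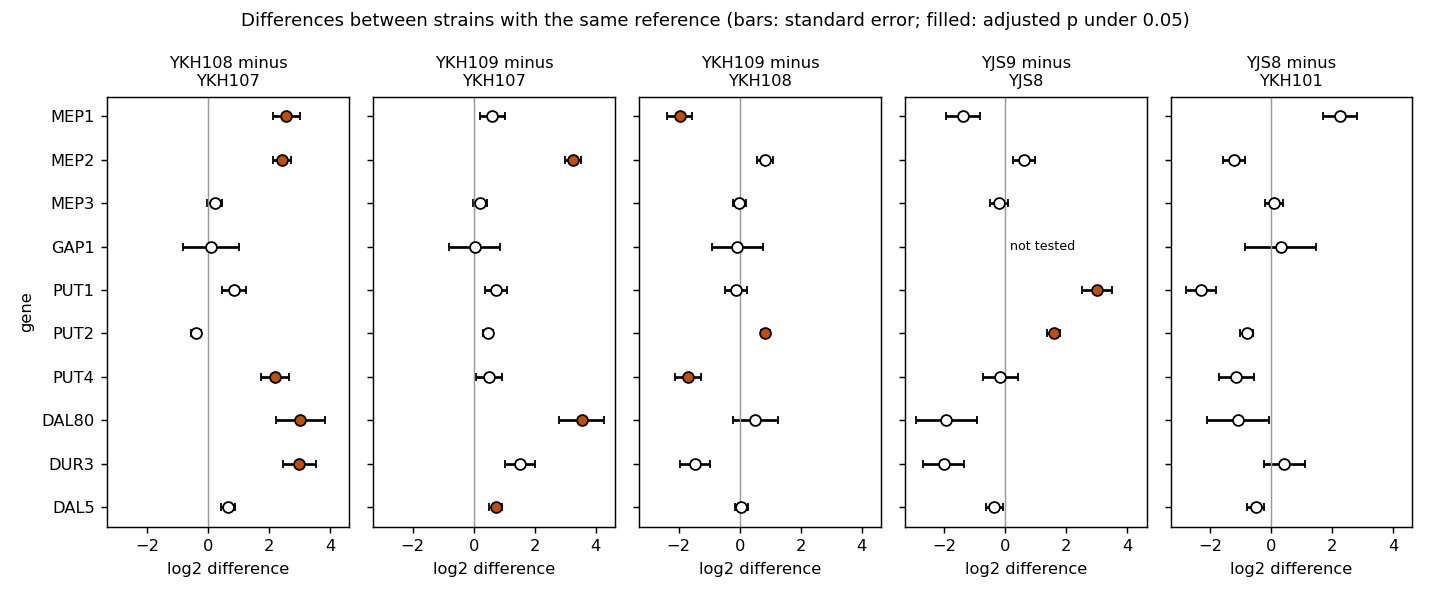
Log2 difference between the strains of 5 pairs (horizontal axes) for each of the 10 genes (vertical axis), with bars for the standard error and filled points for an adjusted p under 0.05. In YKH108 minus YKH107 the filled points of MEP1, MEP2, PUT4, DAL80 and DUR3 lie between 2.18 and 3.02, whereas no point of YJS8 minus YKH101 is filled.

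Strains set against YJS6 were compared in the same way. In YJS9 against YJS8 at 37 °C, 2 of 9 genes differed beside 6.14% of all genes: PUT1 was 4.44 in YJS9 and 1.45 in YJS8, a difference of 2.99 ± 0.49 (SE; limma adjusted p = 0.00519), and PUT2 was 2.07 in YJS9 and 0.48 in YJS8, a difference of 1.58 ± 0.20 (SE; limma adjusted p = 0.0014). Both calls were lost on the deposited scale, at 3.36 and 1.95. DUR3 ran the other way without a call, at 1.24 in YJS9 and 3.26 in YJS8, a difference of -2.02 (limma adjusted p = 0.102). DAL80 differed by -1.93 without a call, and by -3.46 with a call when YJS9 replicate 2 was left out.

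In YKH101 against YKH100, both with GCN5 at -4.97 or below, 3 of the 10 genes differed, all higher in YKH101, where 5.52% of all genes differed. MEP2 was 3.89 in YKH101 and 0.51 in YKH100, a difference of 3.38 ± 0.36 (SE; limma adjusted p = 0.000639). PUT1 differed by 2.51 and DUR3 by 2.94, and PUT2, PUT4, DAL80 and DAL5 by 0.73, 2.01, 3.27 and 1.04 without a call. None of the 3 calls held on the deposited scale, and YKH100 rests on 1 array. Without YKH101 replicate 1 the calls of PUT1 (2.36) and DUR3 (3.21) were lost and DAL5 was called (1.42), and DUR3 lost its call without replicate 2 as well (2.73).

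Between YJS8 at 37 °C and YKH101 none of the 10 genes was called (limma, with 4 at an unadjusted p under 0.05), beside 0.859% of all genes. PUT1 was 1.45 in YJS8 and 3.75 in YKH101, a difference of -2.30 (limma adjusted p = 0.0572). MEP1 was 1.17 in YJS8 and -1.09 in YKH101, a difference of 2.26 that was called without YKH101 replicate 1, at 3.29. YJS8 rests on 1 array here.

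Both temperatures were measured in YJS8, each time against YJS6 treated alike. The values are ratios of YJS8 to YJS6 at the same temperature, so a change with temperature within YJS8 alone was not measured. MEP2 read 2.74 on the single array at 37 °C, against -0.04 and 0.13 on the arrays at 26 °C. DUR3 read 3.32 at 37 °C, against 0.22 and -0.05 at 26 °C, and DAL80 read 2.45 at 37 °C, against -0.42 and -0.02 at 26 °C. The ratios of all 3 genes were thus far higher on the array at 37 °C than on either array at 26 °C. For 2 of the 10 genes the ratio of YJS8 to YJS6 differed between the temperatures, where it did for 7.55% of all genes. The log2 ratio of MEP2 was 2.64 ± 0.36 higher at 37 °C than at 26 °C (SE; limma adjusted p = 0.00255). That of DUR3 was 3.18 ± 0.67 higher (SE; limma adjusted p = 0.0149). DAL80 differed by 2.84 without a call (limma adjusted p = 0.12).

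Both calls depended on which arrays stood for YJS8. The array values deposited under both YKH100 and YJS8 read 0.66 for MEP2, -0.04 for DUR3 and 0.31 for DAL80. Taken as a second YJS8 array, they gave differences of 1.66 for MEP2 and 1.56 for DUR3, and neither was called. DUR3 was also not called without either array at 26 °C (3.28 without replicate 1 and 3.10 without replicate 2), and on the deposited scale neither gene was called (2.03 for MEP2 and 2.57 for DUR3). The arrays at 26 °C themselves correlated at -0.437 over all genes, and no other group had a correlation below 0.273 between opposite channels.

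Related genes were looked at in 9 lists, described by counts only. Shares of all genes called higher and lower were 18.9% and 20.4% in YKH101, 20.9% and 23.1% in YJS9, and 8.14% and 7.74% in YJS8. They were 23.5% and 24.9% in YKH107, 17.0% and 19.9% in YKH108, 25.1% and 27.8% in YKH109, and 6.47% and 7.09% in YKH104. The allantoin genes DAL1, DAL4, DAL2, DCG1, DAL7 and DAL3 lie side by side on 1 chromosome, and their values differed widely within a strain. DAL3, the ureidoglycolate lyase gene, was called higher in the same 5 groups as MEP2 and DUR3, namely YKH101 (2.34), YJS8 (2.15), YJS9 (1.49), YKH108 (1.64) and YKH109 (1.88). It was lower in YKH107 (-0.71), YKH104 (-0.75) and YJS7 (-0.99). DAL1, the allantoinase gene at the other end of this run, was lower in YKH104 (-1.11), YKH107 (-1.69), YKH108 (-0.63) and YKH109 (-0.87). Its values of 0.26 in YKH101 and 0.04 in YJS8 were not called. Of the 6 genes of this list, 2 were higher and 2 lower in YKH108, 3 higher and 1 lower in YKH109, 1 higher and 3 lower in YKH107, 3 lower in YKH104, and 2 higher in YKH101. The medians were 0.11 in YKH108, 0.24 in YKH109, -0.59 in YKH107, -0.78 in YKH104 and 0.22 in YKH101. Over all genes tested the median was between -0.01 and 0.02 in every group.

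The GATA factors and pathway regulators were 8 genes, of which 6 were higher in YKH109, 5 in YKH108, 4 in YKH107, 3 in YKH101 and YJS9, and 1 in YJS7. GAT1, an activator gene that is itself repressed by good nitrogen sources, was higher in YKH101 (2.15), YJS9 (2.23), YKH109 (1.05) and YJS7 (0.93). GLN3, the other activator, was higher in YKH107 (0.79), YKH108 (0.70) and YKH109 (0.95). GZF3, the other GATA repressor, stood at 0.62 in YKH107, 0.38 in YKH108 and 0.69 in YKH109, all called. In YKH107, the 4 higher regulator genes of 8 stood beside 23.5% of all genes higher, and GAT1, DAL82, URE2 and PUT3 were not called. URE2, which restrains Gln3, was at most 0.44, in YKH108. PUT3, the proline activator gene, named after its values were seen, was called in none of the 11 groups, at values from -0.33 to 0.34. These calls depended on the scale. On the deposited scale no regulator gene was called higher in YKH107, YKH108 or YKH109, GLN3 read -0.17, 0.02 and -0.04 in these 3 strains and GZF3 -0.34, -0.31 and -0.30, and URE2 (-0.90) and PUT3 (-1.14) were called lower in YKH107. In YKH109, 2 regulator genes were called lower on that scale, PUT3 (-0.75) among them. Of all genes, 53.4% were called lower on that scale in YKH107 and 60.6% in YKH109. GAT1 was called higher on both scales in YKH101 and YJS9.

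Genes of arginine use were called higher in several of the strains with high proline genes. CAR2, the ornithine aminotransferase gene, was higher in YJS9 (3.47), YKH101 (2.24), YJS8 (1.43), YKH109 (1.28), YJS7 (1.09) and YKH108 (0.97). CAR1, the arginase gene, was higher in YKH101 (1.83), YJS9 (1.65), YJS8 (1.50), YKH107 (1.12), YKH109 (1.08), YKH106 (0.74) and YKH108 (0.66). The genes for the use of GABA were called lower where they were called: UGA2 was lower in YKH107 (-1.14) and YJS9 (-0.81), UGA4 was lower in YKH107 (-1.63). Of the 6 genes of this list, 2 were higher and 1 lower in YKH101 and in YJS9, where 5 were tested, 2 were higher and none lower in each of YJS8, YKH108 and YKH109, and 1 was higher and 2 lower in YKH107. Medians ran from -0.19 in YJS9 to 0.47 in YKH101.

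Ammonium assimilation was led by GLN1, the glutamine synthetase gene, which was higher in YKH101 (1.58), YJS8 (1.29), YJS9 (1.23), YKH107 (0.77), YKH108 (1.08) and YKH109 (1.47). GDH2, the glutamate dehydrogenase that releases ammonium, was higher in YKH109 (2.17) and was not called elsewhere. GLT1, the glutamate synthase gene, was lower in YKH107 (-0.61), YKH108 (-0.62) and YKH109 (-0.91). Of the 5 genes, 3 were higher and 1 lower in YKH109, 2 higher and 1 lower in YKH107, 1 higher and 1 lower in YKH108, and 1 higher in each of YKH101, YJS8 and YJS9.

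Another 12 genes reported as subject to this repression had calls in both directions. In YJS9, 10 of them were higher (20.9% of all genes), and in YKH101 7 were higher and 1 lower (18.9% and 20.4%). In YKH108, 7 were higher and 3 lower (17.0% and 19.9% of all genes), and in YKH109 6 higher and 3 lower (25.1% and 27.8%). YJS8 had 5 higher and 1 lower (8.14% and 7.74%), and YKH107 2 higher and 4 lower (23.5% and 24.9%). The counts of lower genes in YKH108 and YKH109 were near these shares. AGP1, a broad amino acid permease gene, was higher in YKH101 (2.37), YKH108 (1.88), YJS9 (1.83), YJS8 (1.34) and YKH109 (1.19), and lower in YKH107 (-0.68). PEP4, the vacuolar proteinase gene, was higher in YKH109 (1.97), YKH101 (1.84), YJS8 (1.79), YJS9 (1.74), YKH108 (1.37) and YKH107 (0.55). YHI9 was lower in YKH109 (-1.24), YKH108 (-1.12), YKH107 (-1.01), YJS8 (-0.91) and YKH101 (-0.75).

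The 16 other amino acid permease genes had calls in both directions. In YKH101, 8 were higher and 3 lower (18.9% and 20.4% of all genes), and in YJS9 9 higher and 3 lower (20.9% and 23.1%). YKH108 had 6 higher and 3 lower (17.0% and 19.9%), and YKH107 4 higher and 9 lower (23.5% and 24.9%). YKH109 had 6 higher and 8 lower (25.1% and 27.8%). The counts of lower genes in YKH101, YJS9 and YKH108 and of higher genes in YKH107 were near these shares. BAP3, a branched-chain amino acid permease gene, was at -2.45 in YKH109 and -2.10 in YKH107, both called lower, and at -0.38 in YKH108 without a call. MUP1, the high-affinity methionine permease gene, was higher in YKH109 (2.40), YKH101 (2.11), YJS9 (1.99), YJS8 (1.67), YKH108 (1.21) and YKH107 (1.11). DIP5, the permease gene for acidic amino acids, stood at 2.26 in YKH101, 2.18 in YJS9, 1.76 in YKH107, 1.33 in YKH109 and 1.31 in YKH108, all higher.

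Of the 5 genes of the SPS amino acid sensor, 4 were higher in each of YKH101, YJS9, YKH107, YKH108 and YKH109, with STP2 highest at 1.23 in YKH107. Between 17.0% (YKH108) and 25.1% (YKH109) of all genes were higher in these strains. Among the 7 autophagy genes, 5 were higher in YKH109, and ATG8, the ubiquitin-like protein of the autophagosome, was higher in YKH109 (2.36), YKH107 (2.23), YKH101 (1.92), YKH108 (1.79), YJS8 (1.75), YJS9 (1.54) and YKH104 (1.47).

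The counts of these lists are to be read against the shares of all genes called in each strain, given above with centring. The counts moved with the scale. On the deposited scale 2.13% of all genes were higher and 31.1% lower in YKH101, and 3.49% and 22.6% in YJS9. The shares there were 0.563% and 53.4% in YKH107, 1.0% and 29.8% in YKH108, and 2.04% and 60.6% in YKH109. Without centring, the allantoin list had no gene higher and 2 lower in YKH108 and 1 higher and 3 lower in YKH109, and the list of arginine, proline and GABA use had none higher and 1 lower in YKH108 and none higher and 2 lower in YKH109. The ammonium list had none higher and 2 lower in each of YKH107, YKH108 and YKH109. The 12 further repressed genes had 3 higher in YJS9, 2 higher and 1 lower in YKH101, 1 higher and 3 lower in YKH108, 2 higher and 5 lower in YKH109 and 8 lower in YKH107. The amino acid permeases had 2 higher and 3 lower in YKH101, 3 higher and 1 lower in YJS9, 1 higher and 4 lower in YKH108, and 1 higher and 10 lower in YKH107 and in YKH109. No SPS sensor gene was called higher in any of the 5 strains, and 1 autophagy gene was higher and 2 lower in YKH109. DAL3 was called higher on both scales in YKH101 and YKH109, CAR2 in YKH101 and YJS9, AGP1 in YKH101, YJS9 and YKH108, and ATG8 in YKH101, YJS9, YKH107, YKH108 and YKH109.

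General stress genes, followed as a companion list of 15, were mostly called higher in YKH101, YJS8, YJS9, YKH108 and YKH109. Most were called higher too in YKH107 and YJS7, where the median of the 10 genes was -0.03. The stress list had a median of 2.51 in YKH109 with 14 higher and 1 lower, and 2.27 in YKH101 with 14 higher. It was 2.21 in YJS8 with 10 higher, 1.32 in YKH108 with 12 higher and 1.28 in YJS9 with 12 higher. The median was 1.17 in YKH107, with 10 higher and 1 lower, and 0.94 in YJS7, with 11 higher. Without centring, YKH109 had 13 of them higher and 1 lower, with 11 higher in YKH101, 6 higher in YKH108, 3 higher in YJS9, none in YJS8, and 4 higher and 3 lower in YKH107. CTT1, the cytosolic catalase gene, stood at 1.80 in YKH108 and 2.01 in YKH107, both called. Without centring, the median of the 15 genes was 0.63 in YKH108 and 0.21 in YKH107. The part of the stress response in the values of the 10 genes was not tested.

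**Figure D4:**
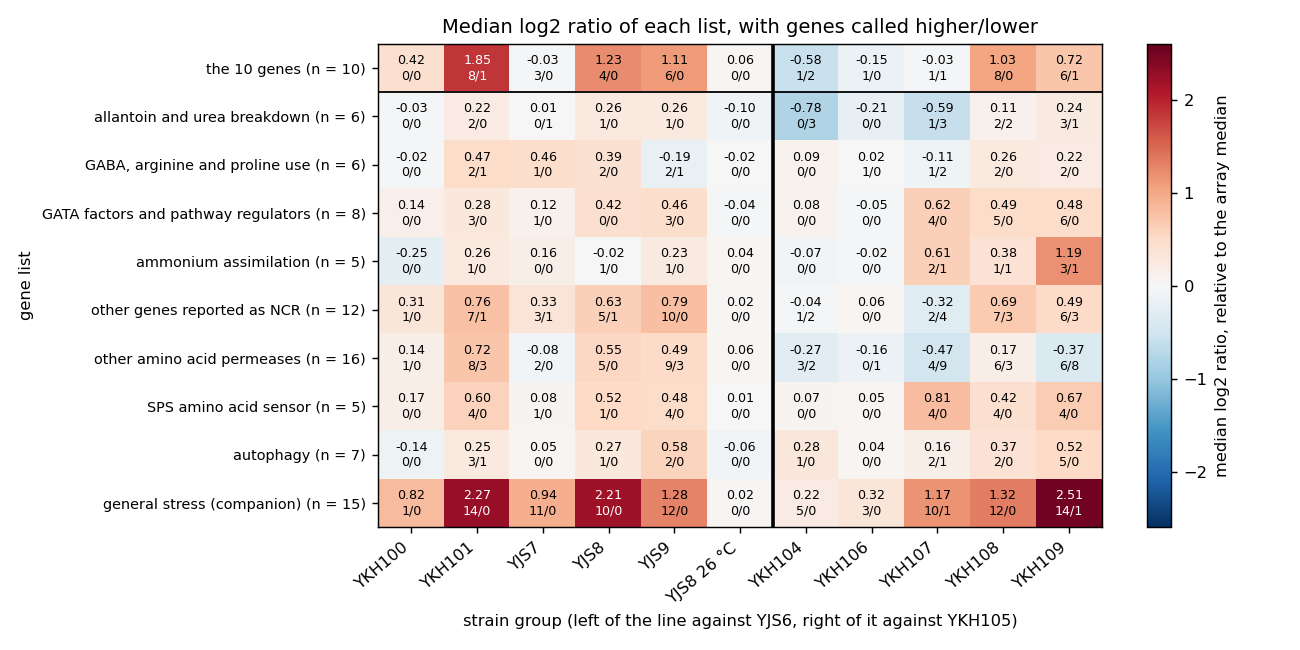
Median log2 ratio (colour and upper number) of the 10 genes and of 9 related lists (rows) in each strain group (columns), relative to the array median, with the numbers of genes called higher and lower below it. In YKH107 the 10 genes have a median of -0.03 with 1 gene higher and 1 lower, and the stress list has a median of 1.17 there.

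Over the 11 groups the genes varied together to different degrees, given here as a description of fitted values that share reference strains. Pearson's r was 0.90 between MEP2 and DAL80 (10 groups), 0.94 between DAL80 and DAL5 (10 groups), 0.85 between MEP2 and DUR3 and 0.87 between DUR3 and DAL5. PUT1 and PUT2 had an r of 0.63, and PUT2 and DUR3 of 0.17. MEP1 and PUT2 had an r of -0.27. Ranked among 5201 genes tested in all groups, those most like MEP2 were ACO1 (0.975), the aconitase gene, PEP4 (0.971), the meiotic regulator gene RIM4 (0.963), DSE1 (0.961), a gene expressed in daughter cells, and IDP2 (0.955), the cytosolic isocitrate dehydrogenase gene. The values of ACO1 ran from -0.46 to 2.46 and those of IDP2 from -0.18 to 1.76. Most like the median of the 10 genes were SOD1 (0.956), the copper-zinc superoxide dismutase gene, with values from -0.69 to 2.46, NCB2 (0.947), a subunit of the TATA-binding protein regulator NC2, HOR7 (0.940), the enolase gene ENO2 (0.931) and ACO1 (0.928). None of these genes other than PEP4 was on the list of genes reported as nitrogen catabolite repressed.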

How the data were processed

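RNA of Saccharomyces cerevisiae strains was co-hybridised on two-channel arrays, which per the labels' protocols were imaged on a GenePix 4000A and quantified in GenePix Pro 4.0. For every spot and array a log2 ratio was deposited. How the authors normalized these ratios was not given in the sources used here. Each array was centred on its median, and spots of 1 gene were averaged, which gave 5547 genes from 6400 spots (822 carried no gene symbol, and 5573 matched the supplied gene table). The number of arrays limits the precision.

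A linear model was fitted per gene to 21 arrays with limma 3.58.1 in R 4.3.3 (lmFit, eBayes), with 1 term for each of 11 strain and temperature groups and a gene-wise dye term. Genes needed values on at least 18 arrays and in both channel orientations of a group. Benjamini-Hochberg adjustment ran over all genes of a group or contrast, with a threshold of 0.05, with 9 residual and 2.87 prior degrees of freedom. Opposite orientations of a strain correlated positively in 8 of 9 groups, so the ratios were read as already turned. Same-orientation arrays with 1 reference had no correlation under 0.108 (45 pairs). Against YKH105, channel orientation followed the array numbers in the titles, so dye and array series cannot be told apart. The fit was tested on simulated data.

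The 10 genes and the 9 lists were chosen with earlier results of these data known. All 10 genes are named. Of each list, up to 4 called genes with the largest values in a strain were eligible, with their values in other strains. Likeness was ranked over the fitted values of the groups, 5 genes each. The list gene DUR1,2 was not found under that name and LAP4 is given as APE1. A planned count of GATA and TATA letters in promoters was not run, since no sequences were used here.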

Additional observations from a re-analysis of the deposited data

Results flagged for a closer look

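In YJS8 at 37 °C minus YJS8 at 26 °C, MEP2 differed by 2.64 and DUR3 by 3.18 in the contrast of the limma fit. Their arrays are given above, and both differences lost their call when the repeated array was counted as a second YJS8 array.

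The values deposited under both YKH100 replicate 2 and YJS8 replicate 2 entered no comparison. For 3 of the 10 genes they lay above the highest YJS6 self array. MEP2 read 0.66 against a highest self value of 0.04, PUT1 read 1.31 against 0.16, and PUT2 read 0.39 against 0.17. For MEP2 the YKH100 array read 0.57 and the YJS8 array 2.74, and for DUR3 the repeated values read -0.04, the YKH100 array -0.06 and the YJS8 array 3.32. Counted as a YKH100 array, they gave calls of PUT1 (1.29; limma adjusted p = 0.0144) and PUT2 (0.47; limma adjusted p = 0.0295) in YKH100. DAL80 read 0.31 in the repeated values, 0.26 on the YKH100 array and 2.45 on the YJS8 array. PUT4 read 1.06, against 0.44 and 1.31. All of the genes but PUT2 and PUT4 read nearer to the YKH100 array than to the YJS8 array. Which strain the repeated values belong to was not tested beyond this.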

How the results depend on the processing

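No paired analysis was possible because the labels carry no replicate numbers, and the numbers given here follow the channel orientation, which the dye term already fits. The promoter count was not run. Of 5049 single values under all alternatives, 4762 stayed on their side of the threshold, among them 106 uncalled values that changed sign, 174 lost a call, 111 gained one and 2 reversed, both on the deposited scale: PUT1 in YKH109 at -0.25 and DAL5 in YKH109 at -0.13. The causes were not tested, beyond fewer arrays where arrays were left out. Of 39 calls of the 10 genes with more than 1 array, 23 held without any 1 array of their own strain. A group of 2 arrays is left with 1 in these fits, so a call can be lost while its value stays near.

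The deposited scale called 1 of the 10 genes in YJS7, 1 in YJS8, 3 in YJS9, 0 in YKH104, 0 in YKH106, 4 in YKH107, 3 in YKH108 and 3 in YKH109, and 0 in YJS8 at 37 °C minus 26 °C, YKH109 minus YKH108, YJS9 minus YJS8 and YKH101 minus YKH100. It called 11 of all genes in YKH100, 25 in YJS7, 123 in YJS8, 1413 in YJS9, 8 in YKH104, 1 in YKH106 and 0 in YJS8 at 37 °C minus 26 °C. With the repeated array as YKH100, 2 of the 10 genes were called in YKH100 (318 of all genes), 1 in YJS8 minus YKH101 and 8 in YKH101 minus YKH100. With it as YJS8, the 4 calls in YJS8 fell partly on other genes, DUR3 and MEP3 losing theirs and PUT2 (0.44) and PUT4 (1.19) gaining one, 1 was called in YKH104, 0 in YKH106, 0 in YJS8 at 37 °C minus 26 °C and 2 in YJS8 minus YKH101, and of all genes 34 in YKH100, 364 in YJS8, 0 in YJS8 at 26 °C, 23 in YKH106 and 7 in YJS8 at 37 °C minus 26 °C. With it under both strains, the 10 genes had 2 calls in YKH100, 1 in YKH104, 0 in YJS8 at 37 °C minus 26 °C, 3 in YJS8 minus YKH101 and 7 in YKH101 minus YKH100, and all genes had 197 in YKH100, 469 in YJS8, 0 in YJS8 at 26 °C, 35 in YKH106 and 12 in YJS8 at 37 °C minus 26 °C. Arrays of the same reference alone gave 5 in YKH104, 4 in YKH107 and 5 in YKH109 minus YKH107, and 37 of all genes in YKH100. Without the dye term 1 was called in YJS8 minus YKH101 and 35 of all genes in YKH106, and a trended robust prior called 0 in YKH106.

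Leaving out 1 array at a time, the count among the 10 genes ran from 0 to 1 in YKH100, 8 to 10 in YKH101, 3 to 6 in YJS9, 0 to 4 in YKH104, 0 to 1 in YKH106, 1 to 3 in YKH107, 4 to 8 in YKH108 and 5 to 8 in YKH109. It ran from 1 to 3 for YJS8 at 37 °C minus 26 °C, 3 to 6 for YKH108 minus YKH107, 1 to 4 for YKH109 minus YKH107, 0 to 3 for YKH109 minus YKH108, 0 to 1 for YJS8 minus YKH101 and 2 to 5 for YKH101 minus YKH100. Counts of all genes ran from 45 to 108 in YKH100, 1161 to 2421 in YKH101, 332 to 974 in YJS7, 1466 to 2682 in YJS9, 1 to 4 in YJS8 at 26 °C, 72 to 931 in YKH104, 12 to 84 in YKH106, 1492 to 2913 in YKH107, 996 to 2336 in YKH108 and 158 to 505 in YJS8 at 37 °C minus 26 °C.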
